A study of Mus musculus with 8 samples.

Results

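Cholesterol synthesis and its sterol control were followed through 7 genes in brown fat (BAT, brown adipose tissue), the depot that burns fuel for heat. The genes were taken by symbol from a given list of enzymes and regulators. They are Hmgcs1, Fdps, Fdft1, Sqle, Lss, Srebf2 and Insig1, that is 7 of the 31053 genes counted. All 7 were found in the count table, and 6 of them passed the filter on low counts that left 9264 genes for testing. The list is not the whole pathway, and it holds no gene of lipoprotein uptake. BAT of 8-week-old WT mice (strain C57BL6/J, n = 4) was compared with BAT of db/db mice of the same age (B6.BKS(D)-Lepr db/J in the methods, C57BL6/J in the labels, n = 4), which lack a functional leptin receptor and become obese and diabetic. Per the study's methods, all mice were males on a normal diet and tissue was taken after a fast. The sources used here differ on whether the WT and db/db mice came from the same vendor, and they leave the db/db background unsettled. A difference of source or strain background therefore cannot be told apart from genotype. The series text calls the libraries biological replicates, but no label names the animal of each, so the p-values measure the spread between these libraries.

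Cholesterol is built from acetyl-CoA through mevalonate to farnesyl diphosphate, which is joined to squalene, closed to lanosterol and trimmed to cholesterol. When membrane sterols are scarce, the escort protein SCAP carries the transcription factor SREBP2 out of the endoplasmic reticulum for cleavage, and SREBP2 then raises the genes of nearly every enzyme of the pathway. When sterols are plentiful, INSIG proteins hold SCAP back. Insig1 is itself an SREBP target, whereas Insig2 is less dependent on it.

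The promoter windows of Hmgcs1, Insig1 and Srebf2 are shown because these genes stood for an enzyme called higher, a regulator called lower and the regulator of the pathway itself. Windows came from RefSeq (GRCm38.p6) and covered 300 bases around each start. In the table, 4 of the 7 genes had a window, namely Hmgcs1, Srebf2, Lss and Insig1. Each sequence below lies upstream of both the RefSeq and the GENCODE start, on the + strand, 5′ to 3′, at chr13:119690101-119690350 for Hmgcs1, chr5:28071162-28071362 for Insig1 and chr15:82147019-82147180 for Srebf2. Capitals mark the sterol regulatory element letters CACNCCAC and the NF-Y letters CCAAT, each on either strand, so that CCAAT can read as ATTGG.
Hmgcs1: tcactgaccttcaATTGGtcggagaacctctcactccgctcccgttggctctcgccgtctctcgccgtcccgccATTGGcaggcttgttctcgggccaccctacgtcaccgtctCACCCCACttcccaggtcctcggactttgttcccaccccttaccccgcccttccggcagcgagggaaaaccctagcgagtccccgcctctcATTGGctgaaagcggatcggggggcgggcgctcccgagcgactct
Insig1: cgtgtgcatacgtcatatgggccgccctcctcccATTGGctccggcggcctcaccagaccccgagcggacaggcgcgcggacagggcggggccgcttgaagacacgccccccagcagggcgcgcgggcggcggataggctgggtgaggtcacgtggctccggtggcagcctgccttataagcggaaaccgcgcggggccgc
Srebf2: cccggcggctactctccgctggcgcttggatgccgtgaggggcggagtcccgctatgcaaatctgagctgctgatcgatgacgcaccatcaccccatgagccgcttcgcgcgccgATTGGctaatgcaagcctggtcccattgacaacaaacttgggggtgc
Hmgcs1 held the longer element TCACNCCAC, which contains CACNCCAC, 137 bases before its start, and among all genes with a window 1.44% held it. The shorter CACNCCAC occurred in 2 of the 4 genes, Hmgcs1 and Insig1, against 7.12% of all genes. In Insig1 this match lay 9 bases before the RefSeq start on the opposite strand, outside the stretch shown. CCAAT was found in 4 of 4 windows against 41.1% of all genes, and the GC box GGGCGG in 4 of 4 against 38.2%. Of the 14 other enzymes with a window, 13 held CCAAT, 13 held GGGCGG and 1, Acat2, held CACNCCAC. These are matches of letters and were not tested for binding.

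The libraries held 2374079 to 2615009 counts in WT and 2382722 to 3240074 in db/db, so that 3 counts, taken as the detection floor, equalled 0.902 to 1.33 CPM. CPM are counts scaled to a common library size, here the total of tested genes times the TMM factor of the library. Lepr, the gene mutated in db/db, had 0 counts in all 8 libraries and could not check the labels. The labels call the cells a stromal vascular fraction, the part of fat left after adipocytes are removed. Yet adipocyte markers, brown ones such as Ucp1 and Cidea with general ones such as Adipoq, summed to 14985 to 21096 CPM in WT. In db/db they summed to 16516 to 22288 CPM, so the libraries held adipocyte RNA. Within this list 6 of 8 tested markers were called, 4 lower (Cidea, log2 fold change -1.24, Ppargc1a, -0.79, Ucp1, -0.65, and Cox7a1, -0.49) and 2 higher (Plin1, 0.79, and Fabp4, 0.65), and Fabp4 made up much of the sum. All 9 skeletal muscle markers tested were higher in db/db, and the 4 WT sums lay between 363 and 1289 CPM against 1886 to 9496 CPM in db/db, where replicate 1 was highest. All 9 macrophage markers were higher too, with sums of 136 to 172 CPM in WT and 771 to 1403 in db/db. White adipocyte markers rose in 4 of 5 (106 to 321 against 1880 to 2895 CPM), fibroblast markers in 5 of 5 (475 to 587 against 903 to 1889 CPM), and endothelial markers fell in 3 of 5 (238 to 300 against 166 to 199 CPM). Hepatocyte markers, which would mark a tissue rich in sterol synthesis, summed to at most 3.61 CPM in any library, with Ttr and Serpina1a at 0 everywhere. In bulk tissue, fewer cells of a type and less RNA per cell cannot be told apart, and the part of these cell types in the results below was not tested except where a value is given.

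The pathway genes did not move as one block. Between the genotypes, Hmgcs1, at the entry of the pathway, was 1.57-fold higher in db/db, whereas Fdft1, at the branch point to sterols, was 2.90-fold lower and Insig1 was 2.26-fold lower. Srebf2, Fdps and Lss did not pass the test, and Sqle was too low to be tested. Without WT replicate 1, WT replicate 2 or db/db replicate 1 the Hmgcs1 call was lost. With skeletal muscle markers as a covariate the call was lost too, at a log2 fold change of 0.07. The Fdft1 value is uncertain, since Fdft1 overlaps Ctsb on the opposite strand. By edgeR's quasi-likelihood test with Benjamini-Hochberg adjustment over all genes, 3 of the 6 tested genes were called, 1 higher and 2 lower. Over all 9264 genes, 27.7% were called, 15.8% higher and 11.9% lower. The libraries of the 2 genotypes did not overlap in 2 of the 6, Fdft1 and Insig1, and in 28.1% of all genes. The median log2 fold change was -0.011 over the 6 and 0.0066 over all genes tested.

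**Figure D1:**
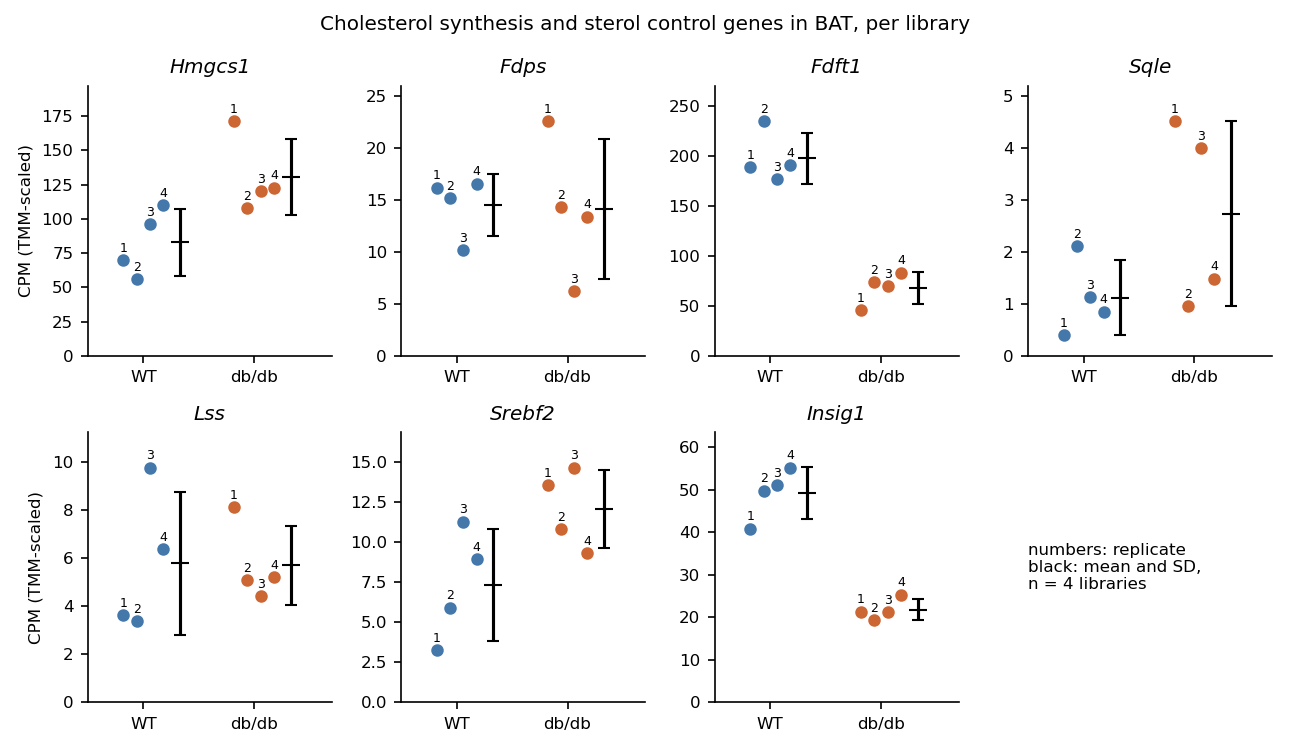
Level of each of the 7 genes in CPM (linear axis from 0) in the 4 WT and 4 db/db libraries, numbered by replicate, with mean and SD (n = 4) in black. For Fdft1 every db/db library (46.0 to 83.3 CPM) lies below every WT library (177 to 235 CPM), and Insig1 shows the same order, whereas the groups overlap for the other 5 genes.

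Hmgcs1 (ENSMUSG00000093930, chr13:119690379-119708260, mm10, + strand) encodes the cytosolic HMG-CoA synthase, which makes the precursor of mevalonate. It read 69.6, 56.1, 96.2 and 109.9 CPM in WT replicates 1 to 4 and 171.2, 107.9, 120.1 and 122.8 CPM in db/db replicates 1 to 4. WT replicate 4 stood just above db/db replicate 2, so the groups overlapped, and db/db replicate 1 stood highest of all. The means were 83.0 ± 24.5 and 130.5 ± 27.9 CPM (SD, n = 4 each), with a log2 fold change of 0.65 (SE 0.20, 95% interval 0.24 to 1.07, edgeR adjusted p = 0.0181). The call was lost when WT replicate 1, WT replicate 2 or db/db replicate 1 was left out, with edgeR adjusted p of 0.0684, 0.0738 and 0.0656 and log2 fold changes of 0.56, 0.49 and 0.49. With the muscle markers as a covariate it was 0.07 (edgeR adjusted p = 0.932). The muscle sums of the genotypes did not overlap, so the covariate and genotype are partly confounded.

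Fdps (ENSMUSG00000059743, chr3:89093588-89101959, - strand) encodes farnesyl diphosphate synthase, whose product feeds sterols, ubiquinone, dolichol and protein prenylation alike. Its WT libraries read 16.2, 15.2, 10.1 and 16.6 CPM and its db/db libraries 22.6, 14.3, 6.21 and 13.4 CPM. The db/db libraries held both the highest and the lowest value, 75 counts in replicate 1 and 14 in replicate 3. The log2 fold change was -0.01 (95% interval -0.67 to 0.65, edgeR adjusted p = 0.985), an interval that reaches up to a 1.57-fold rise. Fdps shares 1124 exon bases on the same strand with the annotated gene Gm43738, which had 0 counts. On the opposite strand, Hmgcs1 shares 557 exon bases with Gm48342 and Lss 381 with 4930483K19Rik, both also with 0 counts. How reads on shared bases were counted is not given in the sources used here, so 0 counts do not show these values to be unaffected.

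Fdft1 (ENSMUSG00000021273, chr14:63145150-63179578, - strand) encodes squalene synthase, the first enzyme that commits farnesyl diphosphate to sterols. WT replicates 1 to 4 had 188.6, 234.7, 176.6 and 190.6 CPM, and db/db replicates 1 to 4 had 46.0, 73.8, 69.6 and 83.3 CPM. All 4 db/db libraries were low, and the lowest was replicate 1, which was the highest for Hmgcs1. The mean fell from 197.6 ± 25.5 to 68.2 ± 15.9 CPM (SD, n = 4 each), with a log2 fold change of -1.54 (SE 0.17, 95% interval -1.89 to -1.18, edgeR adjusted p = 3.62e-06). Leaving out each library in turn kept it between -1.65 and -1.39, and with the muscle markers as a covariate it was -1.11 (edgeR adjusted p = 0.0123). The value is uncertain in 1 respect. Fdft1 overlaps Ctsb, the gene of the lysosomal protease cathepsin B on the opposite strand, over 774 exon bases, and the sources used here do not say if strand was used in counting. Ctsb moved the other way, from 645.0 ± 58.8 to 889.3 ± 44.8 CPM (SD over 4 libraries each; edgeR log2 fold change 0.46 ± 0.12 SE, adjusted p = 0.00965), with no overlap between the genotypes.

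Sqle (ENSMUSG00000022351, chr15:59315077-59331192), squalene epoxidase, introduces the oxygen of the sterol ring and is a slow step of the pathway. It had 1, 5, 3 and 2 counts in WT and 15, 3, 9 and 4 counts in db/db, at or near the floor in most libraries. When every gene with a count was kept, its log2 fold change was 1.20 (SE 0.75, edgeR adjusted p = 0.284), so a difference was not detectable at this depth.

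Lss (ENSMUSG00000033105, chr10:76531588-76557138) encodes lanosterol synthase, which closes the sterol rings. The WT values were 3.64, 3.38, 9.77 and 6.37 CPM and the db/db values 8.12, 5.09, 4.43 and 5.21 CPM. WT replicate 3 was the highest and WT replicate 2 the lowest, with 26 and 8 counts. The log2 fold change of -0.01 had a 95% interval of -0.85 to 0.83 (edgeR adjusted p = 0.985), an interval that reaches up to a 1.77-fold rise.

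Srebf2 (ENSMUSG00000022463, chr15:82147181-82205379) encodes SREBP2. It was counted 8, 14, 30 and 21 times in WT and 45, 34, 33 and 25 times in db/db. In CPM this gave 3.24, 5.91, 11.3 and 8.91 in WT and 13.5, 10.8, 14.6 and 9.30 in db/db. Only WT replicate 3 stood above the lowest db/db library, yet WT alone spanned 3.24 to 11.3 CPM. The log2 fold change was 0.71 (SE 0.34, 95% interval -0.0024 to 1.41) and did not pass the test (edgeR adjusted p = 0.130). With the muscle markers as a covariate it was -0.015.

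Insig1 (ENSMUSG00000045294, chr5:28071363-28078662) encodes the protein that retains SCAP under high sterol. Its levels were 40.9, 49.8, 51.1 and 55.2 CPM in WT and 21.4, 19.4, 21.3 and 25.3 CPM in db/db. Every db/db library lay below every WT library, and the db/db libraries differed little among themselves. The means were 49.2 ± 6.03 and 21.8 ± 2.48 CPM (SD, n = 4 each), a log2 fold change of -1.17 (SE 0.17, 95% interval -1.53 to -0.81, edgeR adjusted p = 6.45e-05). It stayed between -1.27 and -1.12 when each library was left out, and was -1.27 with the muscle markers as a covariate (edgeR adjusted p = 0.0157). No other annotated gene shares its exons.

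Ratios of raw counts within a library do not depend on scaling between libraries. They are given as a description, since the pairs were chosen with the fold changes known. The ratio of Hmgcs1 to Fdft1 counts was 0.369, 0.239, 0.545 and 0.577 in WT and 3.72, 1.46, 1.73 and 1.47 in db/db. In WT there were thus fewer Hmgcs1 than Fdft1 counts in each library, and in db/db more in each, a shift of 4.72-fold. The Ctsb overlap of Fdft1 bears on this ratio as well, since strand use in counting is not known. The 2 INSIG genes also shifted against each other. Insig1 to Insig2 was 2.20, 2.51, 1.77 and 2.32 in WT and 1.0, 0.763, 0.787 and 1.33 in db/db, a 2.31-fold lower ratio with no overlap. Insig1 to Srebf2, the brake against the factor it restrains, was 4.04-fold lower, from 12.6, 8.43, 4.53 and 6.19 in WT to 1.58, 1.79, 1.45 and 2.72 in db/db. The ratio of Srebf2 to Srebf1 overlapped, at 0.50 to 0.60 in WT and 0.515 to 3.0 in db/db.

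**Figure D2:**
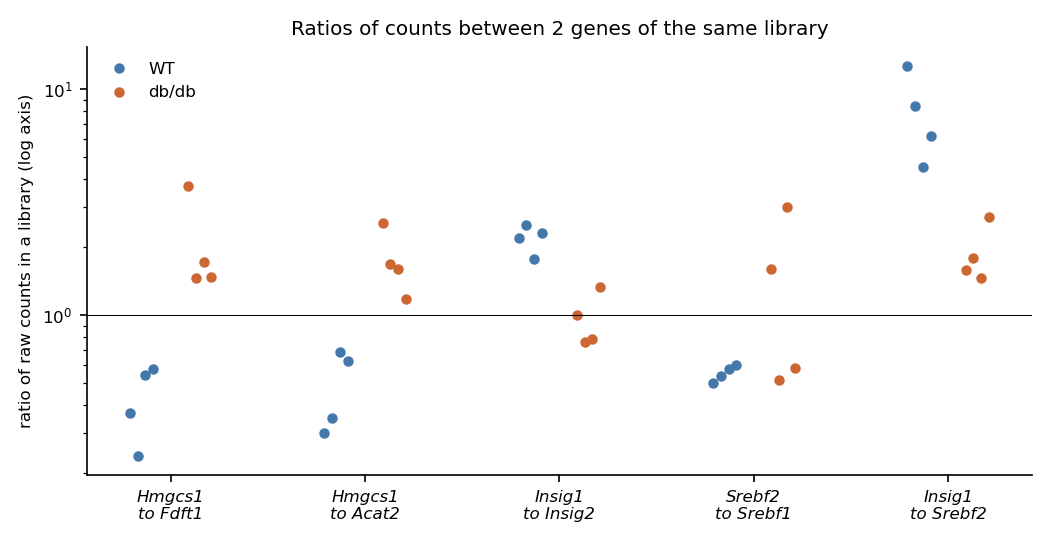
Ratios of raw counts of 2 genes in the same library (log axis) for the 4 WT (blue) and 4 db/db (orange) libraries, 1 point each. The genotypes separate for Hmgcs1 to Fdft1, Hmgcs1 to Acat2, Insig1 to Insig2 and Insig1 to Srebf2, and overlap for Srebf2 to Srebf1.

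Calls in both directions were also found among the other enzymes of the pathway. Of 14 listed, 12 were tested and 6 were called, 4 higher and 2 lower, which is 50% against 27.7% of all genes, with a median log2 fold change of 0.56 against 0.0066. The count was 3 without WT replicate 2 and 3 without db/db replicate 1, and 1 with the muscle markers as a covariate, a setting that also took the calls over all genes from 2568 to 559. With the 7 genes added, 9 of the 18 tested enzymes and regulators were called, 5 higher and 4 lower.

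In the mevalonate branch, 1 of 4 tested enzymes rose and 2 fell, against 15.8% higher and 11.9% lower over all genes. Acat2, the cytosolic thiolase that joins the first acetyl-CoA units, read 231, 160, 139 and 175 CPM in WT and 66.8, 63.9, 75.4 and 104.5 CPM in db/db. All db/db libraries were below all WT libraries (edgeR log2 fold change -1.19 ± 0.18 SE, adjusted p = 9.57e-05), although with the muscle markers as a covariate the value was -0.74 and no longer called (edgeR adjusted p = 0.132). Acat2 has a closely related copy, Acat3, counted 11 to 21 times in WT and 3 to 16 times in db/db, so some reads may be split. The ratio of Hmgcs1 to Acat2 counts, 2 consecutive steps, shifted 3.65-fold with no overlap. Mvk, mevalonate kinase, was higher in each db/db library (13.7 to 16.0 CPM) than in each WT library (6.01 to 11.4 CPM), yet with an edgeR adjusted p of 0.0535 (log2 fold change 0.70) it was not called, and it was called without WT replicate 2 (edgeR adjusted p = 0.0475), with at least 10 counts in every sample (0.0311) and by limma-voom (adjusted p = 0.0455). Pmvk, phosphomevalonate kinase, was lower (edgeR log2 fold change -0.54 ± 0.19 SE, adjusted p = 0.0382), and lost its call without WT replicate 1, 2 or 4 or db/db replicate 1 or 3 (edgeR adjusted p 0.0546 to 0.112) or with at least 10 counts in every sample (0.0586). Mvd, the decarboxylase that follows, rose from 4.19 ± 1.81 to 8.91 ± 2.98 CPM (SD over 4 libraries each; edgeR log2 fold change 1.10 ± 0.39 SE, adjusted p = 0.0426). It lost its call without WT replicate 2, 3 or 4 or db/db replicate 1 or 4 (edgeR adjusted p 0.0712 to 0.130), with library totals alone (0.0561) and under limma-voom, where the adjusted p was 0.05001. Idi1, the isomerase, had 0 to 2 counts in every library and could not be tested.

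In the sterol branch after lanosterol, 3 of 8 tested enzymes rose and 0 fell at the threshold, read against the same shares of all genes, 15.8% and 11.9%. Msmo1, which oxidises the methyl groups removed from lanosterol, read 7.69, 6.33, 9.77 and 5.94 CPM in WT and 18.4, 23.5, 15.5 and 21.9 CPM in db/db. Each db/db library was above each WT library, a 2.65-fold rise (edgeR log2 fold change 1.41 ± 0.26 SE, adjusted p = 4.80e-04), and it was the only one of the 12 still called with the muscle markers as a covariate (1.79, edgeR adjusted p = 0.0159). Nsdhl and Hsd17b7, which act with Msmo1 in removing those methyl groups, rose by log2 fold changes of 0.81 (SE 0.25, edgeR adjusted p = 0.0233) and 1.24 (SE 0.42, edgeR adjusted p = 0.0345). The Nsdhl call was lost without WT replicate 2 or db/db replicate 1 (edgeR adjusted p = 0.0818 and 0.0775), and the Hsd17b7 call without WT replicate 1, 2 or 4 or db/db replicate 1 or 2 (0.0820 to 0.116). Under that covariate the log2 fold changes of the enzymes no longer called were 1.10 for Mvd, 1.05 for Hsd17b7, 0.53 for Nsdhl and -0.17 for Pmvk beside that of Acat2 (edgeR adjusted p 0.132 to 0.831). With the replicate number as a block, Hsd17b7 had an edgeR adjusted p of 0.0535.

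Of the sterol enzymes not called, Sc5d, a desaturase, was higher in each db/db library (30.6 to 35.2 CPM) than in each WT library (at most 29.3 CPM), with a log2 fold change of 0.58 (edgeR adjusted p = 0.0627), and was called without WT replicate 3 or 4 (0.0343 and 0.0396), with at least 10 counts in every sample (0.0430) and by limma-voom (0.0384). Cyp51, the lanosterol demethylase, had a log2 fold change of -0.65 (edgeR adjusted p = 0.0735) and was called lower without WT replicate 1 or db/db replicate 1 (0.0410 and 0.0476) and when every gene with a count was kept (0.0262). It shares 166 exon bases with Akap9 on the opposite strand and is uncertain. The log2 fold changes were 0.54 for Lbr (edgeR adjusted p = 0.205), 0.03 for Ebp (95% interval -0.30 to 0.36) and -0.35 for Dhcr7 (-1.09 to 0.39). Lbr shares 440 exon bases with Dnah14 on the opposite strand, which had 5 counts in all. Tm7sf2 was too low to test.

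**Figure D3:**
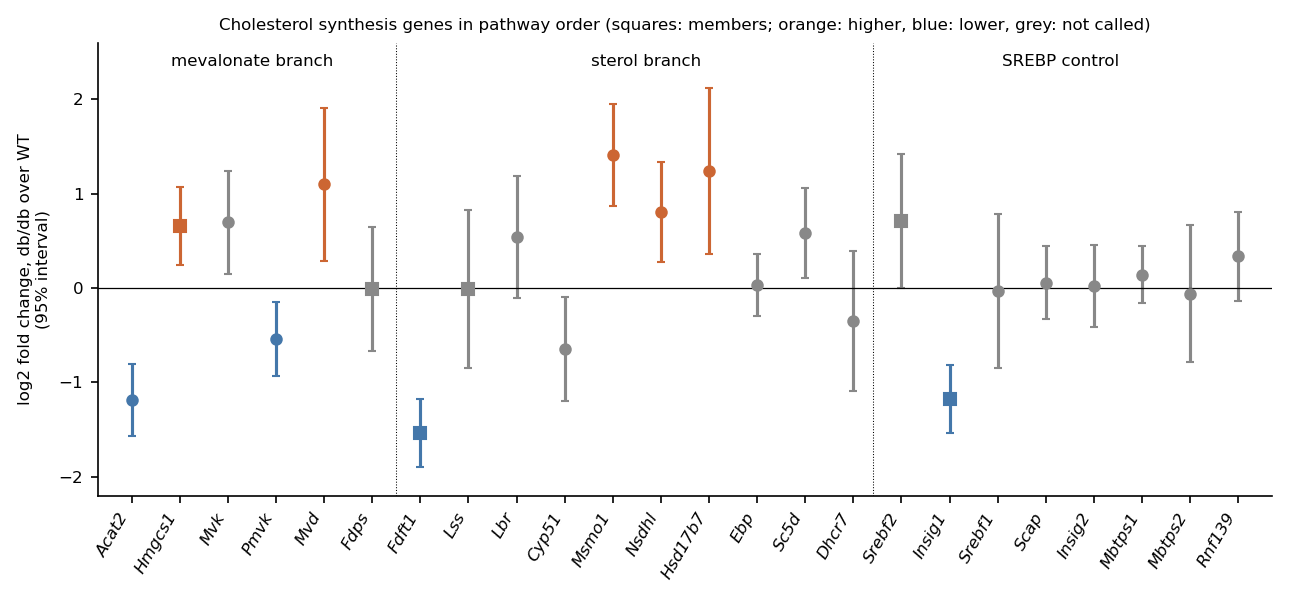
log2 fold change (db/db over WT) with 95% interval from edgeR, for the tested enzymes from acetyl-CoA to cholesterol and then the SREBP control genes, n = 4 libraries per genotype, with squares for the members Hmgcs1, Fdps, Fdft1, Lss, Srebf2 and Insig1 and colour for the call. Called genes lie on both sides of 0, with Hmgcs1, Mvd, Msmo1, Nsdhl and Hsd17b7 above it and Acat2, Pmvk, Fdft1 and Insig1 below it.

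Among the other genes of SREBP control, 0 of 6 were called by edgeR, DESeq2 or limma-voom, and 0 had an unadjusted edgeR p under 0.05. Srebf1, which encodes the sister factors of fatty acid synthesis, lay between 6.47 and 19.5 CPM in WT, while db/db held both a lower value (4.88 CPM, replicate 3) and a higher one (replicate 2) (log2 fold change -0.03, 95% interval -0.85 to 0.79). Insig2 read 18.6 to 28.9 CPM in WT and 19.0 to 27.0 in db/db (0.02, 95% interval -0.41 to 0.45). The log2 fold changes of the escort Scap and of the proteases Mbtps1 and Mbtps2 were 0.06 (-0.33 to 0.44), 0.14 (-0.16 to 0.44) and -0.06 (-0.79 to 0.66). For the ubiquitin ligase Rnf139 it was 0.34 (-0.13 to 0.81). Of 2 further SREBP2 targets tested, Tmem97 (-0.23) and Rdh11 (0.39), 0 were called by edgeR, DESeq2 or limma-voom, with 0 at an unadjusted edgeR p under 0.05. Over all genes 27.7% were called, and with so few genes in either list nothing is read from these counts. Rnf139 shares 1140 exon bases with Tatdn1 (350 counts over all libraries) and Srebf1 109 with Rai1 (105 counts). Both overlaps lie on the opposite strand, so the values of Rnf139 and Srebf1 are uncertain. Mbtps2 shares 2867 with Yy2 on the same strand. Yy2 had 0 counts, which does not show the value of Mbtps2 to be unaffected.

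Beyond sterols, 7 genes that use farnesyl diphosphate elsewhere were tested and 2 were called, a share of 28.6% near the 27.7% of all genes. These were the subunits of farnesyltransferase, 1 lower and 1 higher, and the other 5 were not called, among them Ggps1 (log2 fold change -0.35) and Coq2 (0.20). Ggps1 is uncertain, since it shares 257 exon bases with Arid4b (1124 counts) on the opposite strand. Fnta fell from 141.1 ± 9.15 to 99.6 ± 8.70 CPM (SD over 4 libraries each; edgeR log2 fold change -0.50 ± 0.13 SE, adjusted p = 0.0067), and Fntb rose from 12.1 ± 1.60 to 19.1 ± 0.835 CPM (edgeR log2 fold change 0.66 ± 0.21 SE, adjusted p = 0.0286). Fntb shares 257 exon bases with Churc1 on the same strand, and its call was lost without WT replicate 2, 3 or 4 or db/db replicate 2 (edgeR adjusted p 0.0524 to 0.0897) and when every gene with a count was kept (0.0860). Of the sterol-sensing liver X receptors, Nr1h2 was lower (log2 fold change -0.57, edgeR adjusted p = 0.0280), and lost its call without WT replicate 2 or 4 or db/db replicate 1 or 4 (0.0546 to 0.0867). Nr1h3 had -0.46 (edgeR adjusted p = 0.0659), called without WT replicate 2 (0.0353), with every gene with a count kept (0.0498) and with the replicate block (0.0498). Their targets Mylip and Abca1, a cholesterol exporter, had -0.27 (95% interval -0.98 to 0.44) and 0.19 (-0.43 to 0.80), so that 1 of the 4 tested genes of this list was called. With the muscle markers as a covariate, Fnta, Fntb and Nr1h2 were not called (edgeR adjusted p = 0.151, 0.383 and 0.336), with log2 fold changes of -0.60, 0.68 and -0.65.

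Fatty acid synthesis, the sister pathway under SREBP1, had 4 of 9 tested genes called, 3 lower and 1 higher, against 11.9% lower and 15.8% higher over all genes. The median log2 fold change was -0.45 against 0.0066 over all genes. Fasn, fatty acid synthase, read 6572, 6142, 4151 and 6789 CPM in WT and 1962, 2116, 694 and 2152 CPM in db/db. All db/db libraries were below all WT libraries (edgeR log2 fold change -1.77 ± 0.27 SE, adjusted p = 9.57e-05). Thrsp and Elovl5 were lower by log2 fold changes of -0.71 (edgeR adjusted p = 0.00551) and -0.58 (edgeR adjusted p = 0.00877), and neither was called with the muscle markers as a covariate, where Thrsp had -0.22 and Elovl5 -0.74 (edgeR adjusted p = 0.723 and 0.134). Scd2, a desaturase, rose from 4.40 ± 0.897 to 20.4 ± 6.13 CPM (SD over 4 libraries each; edgeR log2 fold change 2.23 ± 0.30 SE, adjusted p = 2.93e-05).

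**Figure D4:**
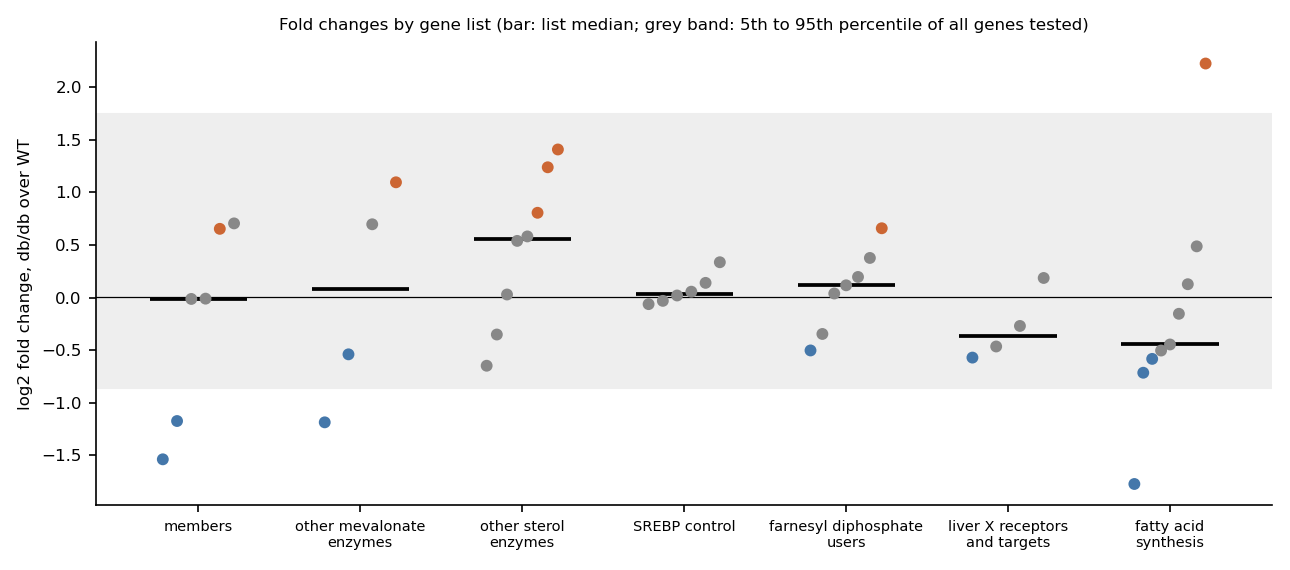
log2 fold change (db/db over WT) of every tested gene by list, coloured orange for higher, blue for lower and grey for not called, with a bar at the list median and a grey band from the 5th to the 95th percentile of all 9264 genes (-0.86 to 1.74). The median of the sterol enzymes is 0.56 and that of the fatty acid synthesis genes -0.45, while Fdft1, Insig1, Acat2 and Fasn lie below the band and Scd2 above it.

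Library by library, deviations from the genotype means of log2 CPM were correlated over the 8 libraries, as a description, since the points share depth and tissue composition. Over the 15 pairs of the 6 tested genes, r ran from -0.72 to 0.84 with a median of 0.21, and 9 pairs were positive. Hmgcs1 went with Lss (0.84) and Srebf2 (0.61), and Srebf2 with Lss (0.74), whereas Hmgcs1 and Fdft1 went against each other (-0.72). Among the other enzymes, Nsdhl (0.82) and Sc5d (0.80) were closest to Hmgcs1. Of 4528 genes with at least 20 CPM, the 5 nearest to the mean deviation of the 6 genes included Ndel1 (0.96), Arl2bp (0.96), Lcp1 (0.94) and Emd (0.94).

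Beside the muscle marker sum of each library, Hmgcs1 was highest and Fdft1 lowest in db/db replicate 1, the library with the highest sum (9496 CPM). Insig1 in that library, 21.4 CPM, lay within the range of the other db/db libraries. Within WT, where the sum ran from 363 to 1289 CPM, Fdft1 stayed between 177 and 235 CPM. Hmgcs1 ran there from 56.1 to 109.9 CPM and Insig1 from 40.9 to 55.2 CPM, both highest in replicate 4, as was the sum. In db/db replicates 4, 2, 3 and 1 the muscle sum rose through 1886, 2616, 4205 and 9496 CPM. Fdft1 there fell through 83.3, 73.8, 69.6 and 46.0 CPM. In the same order Hmgcs1 read 122.8, 107.9, 120.1 and 171.2 CPM, and Insig1 25.3, 19.4, 21.3 and 21.4 CPM. The part of muscle RNA was not tested beyond the covariate.

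**Figure D5:**
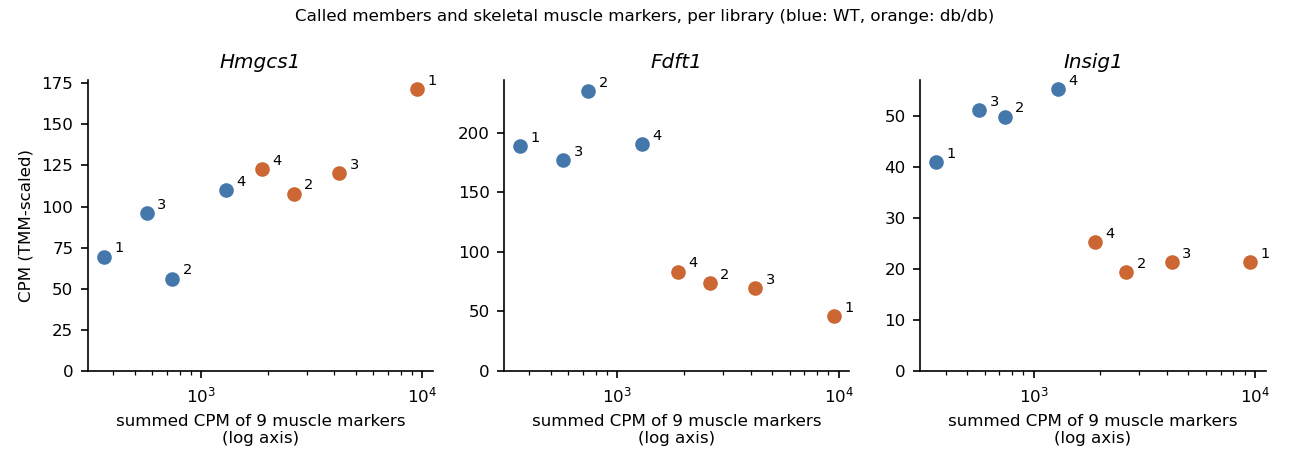
CPM of Hmgcs1, Fdft1 and Insig1 (linear axis from 0) against the summed CPM of 9 skeletal muscle markers (log axis) in the 8 libraries, numbered by replicate, WT in blue and db/db in orange. The db/db libraries lie to the right in all panels, with replicate 1 at 9496 CPM of muscle markers holding the highest Hmgcs1 (171.2 CPM) and the lowest Fdft1 (46.0 CPM).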

How the data were processed

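BAT of 4 WT and 4 db/db mice was profiled by bulk RNA-seq. Per the study's methods, a sequencing service made the mRNA libraries, read them from one end, trimmed the reads (bbduk), aligned them to mm10 (STAR) and counted them per gene (HTSeq), while the submitters' processing notes name Trimmomatic and HISAT2. The raw counts deposited by the authors were used as they stand. Whether counting used the strand or molecular identifiers is not given in the sources used here, so the counts can hold PCR copies, and floors cover counting error only. The deposited normalized values and sample sheet were not used here.

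Of 31053 Ensembl identifiers, 30934 matched a symbol in GENCODE, and the other 119 held at most 0.00758% of the counts of a library. Groups and replicate numbers came from the sample titles. Genes were filtered with filterByExpr (minimum count 10, minimum total 15), scaled by TMM and tested across all genes with the quasi-likelihood test of edgeR 4.0.16 (R 4.3.3). The model held genotype alone, and p-values were adjusted by Benjamini-Hochberg at 0.05. Alternatives were DESeq2 1.42.0 (the study's tool), limma-voom (limma 3.58.1), DESeq2 size factors, library totals, mitochondrially encoded genes left out, 2 other filters on low counts, the replicate number as a block, skeletal muscle markers as a covariate and leaving out each library. The procedure was tested on simulated data.

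The members and lists were chosen with earlier results of these data known, and the lists are not exhaustive. Some genes of the lists, and of those most alike, are not reported here and were left out of the counts by list. The text names all 7 members, the genes of the mevalonate, sterol and SREBP control lists, at most 4 of each other list by smallest p, and, of the 5 genes of at least 20 CPM most alike, those reported here. Ctsb, Akap9, Churc1, Acat3, most counted genes that share exons with a named pathway gene, and the cell type markers were named outside this rule, beside the results they touch. Motifs were searched in 32851 RefSeq promoter windows of 27025 genes. Figures were drawn with matplotlib.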

Additional observations from a re-analysis of the deposited data

Results flagged for a closer look

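In groups of 4 libraries, a value was picked out when its gap to the nearest other library, divided by the range of the group, exceeded Dixon's 95% critical value. This held in 7 of 82 groups, where chance gives about 4.1. The Idi1 groups, with counts in a single library each, are picked out by construction, so 7 is not read as an excess. Fasn read 694.2 CPM in db/db replicate 3 (1566 counts) against 1962 to 2152 CPM in the other db/db libraries (5785 to 6650 counts). Fnta read 127.5 CPM in WT replicate 1 against 143.9 to 146.9 CPM in the other WT libraries. Mbtps1 read 52.6 CPM in WT replicate 4 against 60.9 to 62.5 CPM. Rdh11 read 9.02 CPM in WT replicate 3 against 3.82 to 4.64 CPM, and Nr1h2 read 38.3 CPM in the same library against 40.9 to 41.2 CPM. Idi1 read 0.422 CPM in WT replicate 2 (1 count) and 0.636 CPM in db/db replicate 2 (2 counts), with 0 counts in the other libraries of each genotype. None of the 7 members was picked out in either genotype.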

How the results depend on the processing

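The 7 members gave 3 calls in every alternative except the muscle covariate, which gave 2, and leaving out single libraries, which gave 2 to 3. Fdft1 and Insig1 were called in all of them, and Hmgcs1 was the call that was lost. The other enzymes gave 5 to 7 calls under other tools, scalings and filters, 1 with the muscle covariate and 3 to 6 with a library left out (3 without WT replicate 2 and without db/db replicate 1). Calls over all genes ran from 2018 to 3170 with 2236 to 2483 when a library was left out, and fell to 559 with the muscle covariate. The cause of these changes was not tested, and the muscle marker sums of the genotypes did not overlap.

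Among 334 comparisons of 38 named genes with other settings, 298 kept direction and side of the threshold, 16 were weaker, 7 stronger and 13 reversed. Of 304 with a library left out, 242 were kept, 28 weaker, 6 stronger and 28 reversed. Every gene that reversed had not been called. The muscle covariate gave log2 fold changes of -0.015 for Srebf2, -0.076 for Ebp, 0.41 for Srebf1, -0.22 for Scap, -0.13 for Insig2 and 0.22 for Tmem97. At least 10 counts in every sample gave 0.049 for Fdps and 0.022 for Srebf1, every gene with a count gave -0.018 for Ebp and -0.027 for Insig2, library totals alone gave -0.0051 for Insig2, and limma-voom gave 0.084 for Lss. Leaving out a library gave -0.34 to 0.21 for Fdps, -0.25 to 0.35 for Lss, -0.077 to 0.16 for Ebp, -0.40 to 0.22 for Srebf1, -0.076 to 0.13 for Scap, -0.087 to 0.14 for Insig2, -0.15 to 0.037 for Mbtps2, -0.61 to 0.073 for Tmem97 and -0.022 to 0.44 for Abca1.

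Replicate numbers 1 to 4 occur in both genotypes but name different animals, and deviations of same-numbered libraries did not go together (r from -0.078 to 0.049). The replicate block gave 2557 calls over all genes, 3 among the members and 5 among the other enzymes, Lss reversed to 0.055, Hsd17b7 lost its call and Nr1h3 gained one. Replicates 1 and 2 correlated best with their own number, 3 and 4 did not. Sqle, Idi1 and Tm7sf2 had too few counts to be tested.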

Other observations

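Genes that were not part of the sterol lists but lay closest to the members' library-to-library profile differed in their own genotype contrast. Lcp1, a leukocyte actin bundler, had a log2 fold change of 2.84 (edgeR adjusted p = 1.60e-05), whereas Ndel1 (-0.35), Arl2bp (0.14) and Emd (-0.24) were not called. The summed level of the 7 members was 323 to 388 CPM in WT and 232 to 287 CPM in db/db, without overlap, and that of the members and the other enzymes 720 to 773 against 519 to 602 CPM. Both sums are made up mostly of counts of a few genes, among them Fdft1, Acat2 and Hmgcs1. The Ctsb overlap of Fdft1 therefore bears on both.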
